A study of Homo sapiens with 2 samples.

Results

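The condensins and type II DNA topoisomerases were followed as a set of 10 genes, which encode the 8 subunits of condensin I and condensin II (SMC2, SMC4, NCAPD2, NCAPG, NCAPH, NCAPD3, NCAPG2, and NCAPH2) and both isoforms of topoisomerase II (TOP2A and TOP2B). Members were taken as the probes whose RefSeq transcript belongs to one of these genes, which gave 15 probes on 33 spots, against 23752 genes and unnamed transcripts measured in all. All 10 genes were well above background on both arrays, so none was lost to the filter on dim probes. The samples were HepG2 cells, an established hepatocellular carcinoma line, given either dimethyl sulfoxide (DMSO), the vehicle, or hawk tea extract (HTE, an ethanol extract of leaves dissolved in DMSO) for 24 h. The labels give an HTE dose of 200 μg mL−1, whereas the name of the deposited array gives 300 μg mL−1 and the study's text also names the higher of these. From a separate assay, the paper reports that the higher dose slightly lowered the viability of HepG2 cells. RNA integrity numbers were above 8, and both arrays lay on the same slide. Expression was profiled on 1 Agilent array per treatment, so the groups hold 1 sample each, no test between them was possible, and the spread between cultures is unknown.

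Condensins are ring-shaped complexes that fold DNA into loops and compact chromatin into rod-like chromosomes when a cell divides. Both condensins share the ATPases SMC2 and SMC4 and differ in the remaining subunits. Condensin II stays in the nucleus through interphase, and condensin I reaches the chromosomes after the nuclear envelope breaks down. Topoisomerase II passes one DNA duplex through a cut in another, which frees sister chromatids from each other. TOP2A is made mainly by dividing cells and is known to rise before mitosis, whereas TOP2B is also made by cells that do not divide and acts at transcribed genes.

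The arrays held 58717 spots that are not controls, of which 60.6% (DMSO) and 56.6% (HTE) were well above background, and no spot was saturated. Levels are given as log2 of the processed signal minus that of the 75th percentile of the array (a signal of 4020 on the DMSO array and 3570 on the HTE array). Levels of different probes are not comparable with each other, and only the ratio of HTE over DMSO of the same probe is read as a difference. Signals are printed as deposited, unscaled, whereas every log2 ratio and percentage is of the scaled levels. A scaled log2 ratio or percentage is therefore higher than the one that the printed signals give. The log2 ratio is higher by the same amount for every probe. For TOP2A it was -1.31, against -1.48 without scaling. Unless said otherwise, a gene is given by its brightest probe. The measurable error is that of the arrays. The SD of the log2 ratio had a median of 0.051 among replicate spots of a probe (688 probes) and of 0.16 among different probes of a gene (3759 genes), and neither includes the variation between cultures.

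All 10 genes had a lower level on the HTE array, although TOP2B by less than the SD over its single spots. The count of genes at least 2-fold lower was 5 of 10 (TOP2A, SMC2, NCAPD3, NCAPG, and NCAPG2), whereas 3.03% of all genes measured were that much lower. No member was at least 2-fold higher, against 5.25% of all genes, and 49% of all genes had a log2 ratio below 0. The median log2 ratio over the members was -0.92, and that over all genes was 0. Taking each probe on its own, all 15 were lower and 7 of them at least 2-fold, against 2.9% of all probes. The members and the lists below were chosen with earlier results of these data known, so such contrasts are not independent of the choice. These arrays measure RNA of the whole culture, in which fewer dividing cells and less RNA per cell cannot be told apart, nor can HTE and the array.

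**Figure D1:**
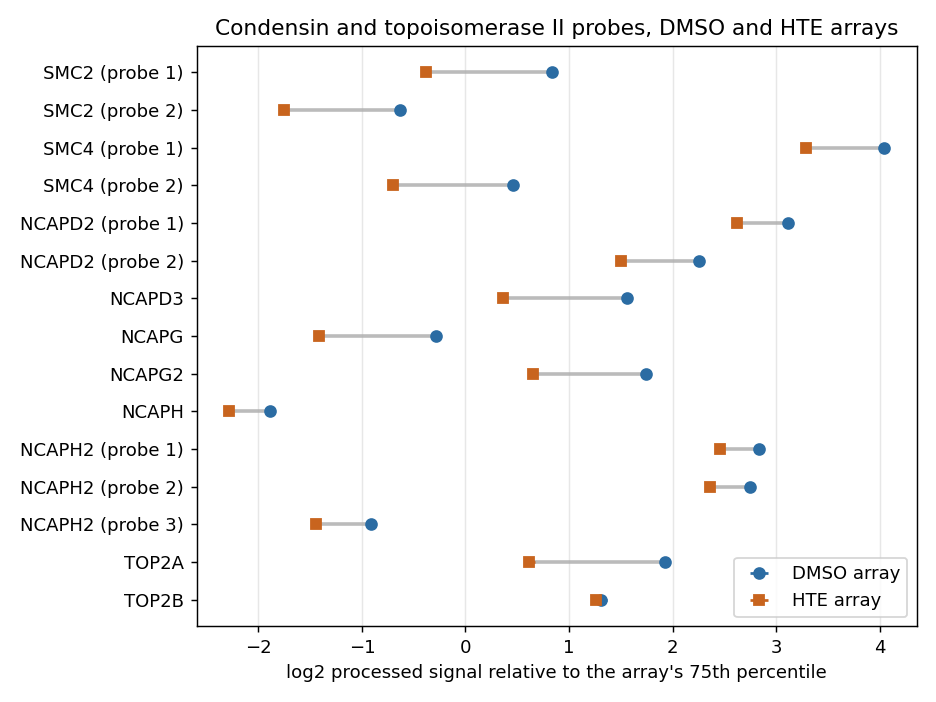
Level of every member probe on the DMSO array (circles) and the HTE array (squares), as log2 processed signal relative to the 75th percentile of each array. Error bars, which are smaller than the symbols, are SD over replicate spots for TOP2A and TOP2B, and the other probes have 1 spot per array. The HTE value lies to the left of the DMSO value for every probe, by 1.31 for TOP2A and by 0.041 for TOP2B.

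Ordered by ratio, the 10 genes were separated at 3 places by more than the spread among probes of a gene. That spread is a median SD, and a difference between probes varies by more than an SD, so the gaps only describe the order. TOP2A, SMC2, NCAPD3, NCAPG, and NCAPG2 lay between -1.31 and -1.09, and each differed from its neighbour in this order by less than the 0.16 seen among probes of a gene. A gap of 0.34 separated NCAPG2 from SMC4, and one of 0.26 separated SMC4 from NCAPD2. NCAPD2, NCAPH, and NCAPH2 lay between -0.49 and -0.38 and again differed from their neighbours by less than 0.16. TOP2B stood 0.34 above NCAPH2. The gaps on either side of SMC4 depend on the probe taken. The dimmer SMC4 probe (-1.15) lay within the range of the first group. The dimmer NCAPD2 probe (-0.76) lay beside the brighter SMC4 probe (-0.75).

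The isoforms of topoisomerase II are each covered by 1 probe that is spotted 10 times, which gives them the best measured values of the set. The TOP2A signal ranged from 14707 to 15918 (median 15154) over 10 spots on the DMSO array, and from 5285 to 5902 (median 5435) over 9 spots on the HTE array, after 1 outlier spot was left out. No TOP2A spot of one array reached the range of the other. The mean levels of 1.92 ± 0.040 and 0.62 ± 0.050 (SD over spots) gave a log2 ratio of -1.31, so that the scaled level was 40.5% of that in DMSO-treated cells. Of all genes measured, 1.2% had a lower ratio than TOP2A.

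TOP2B, which acts outside mitosis as well, gave signals from 9019 to 10481 (median 9936) over 9 spots on the DMSO array and from 8315 to 8913 (median 8523) over 10 spots on the HTE array. The unscaled ranges touch no common value, and the signal at the 75th percentile was also lower on the HTE array (3570) than on the DMSO array (4020). After scaling, the spots overlapped, with mean levels of 1.31 ± 0.060 and 1.26 ± 0.036. The log2 ratio of -0.041 was smaller than the SD of 0.081 over the 9 spot positions usable on both arrays. That SD is the spread of single spots and not the error of their mean. With outlier spots kept the ratio was 0.00091, so TOP2B has no settled direction. It lay near the middle of all genes, 44.9% of which had a lower ratio. The ratio of TOP2A was 1.26 below that of TOP2B on the log2 scale. This difference cannot change with the scaling of the arrays by a single number, and it lay between -1.31 and -1.22 under the other processing tried.

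**Figure D2:**
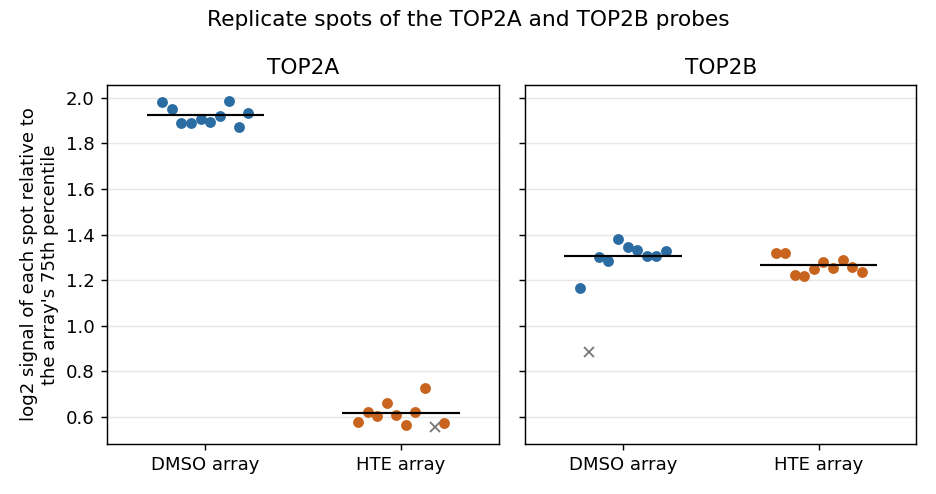
Each replicate spot of the TOP2A probe (left) and the TOP2B probe (right) on the DMSO and HTE arrays, as log2 signal relative to the 75th percentile of the array. Points are spots, black lines are their means, and crosses are outlier spots that were left out. The TOP2A spots form separate groups around 1.92 and 0.62, and the TOP2B spots overlap around 1.31 and 1.26.

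SMC2 and SMC4 form the hinged ATPase core of both condensins. For SMC2 the brighter probe went from a signal of 7158 with DMSO to 2737 with HTE, and the dimmer probe from 2588 to 1062. The log2 ratios of -1.22 and -1.11 differed by less than the spread usual among probes, and both were past 2-fold. For SMC4 the brighter probe went from 66109 to 34871, with a log2 ratio of -0.75, and the dimmer probe from 5512 to 2204, with -1.15. The probes of SMC4 therefore differed by 0.40, more than the median SD among probes of a gene, and lie on either side of 2-fold, so that SMC4 counts as past 2-fold by its dimmer probe only. Both probes carry the same RefSeq transcript, and which of them follows the transcript better was not tested.

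NCAPD2, NCAPG, and NCAPH are the subunits particular to condensin I. NCAPG, a HEAT-repeat subunit that binds DNA, went from a signal of 3296 to 1336, a log2 ratio of -1.13. NCAPD2, the other HEAT-repeat subunit, went from 34894 to 21995 at its brighter probe, a log2 ratio of -0.49, and from 19240 to 10091 at its dimmer probe, a ratio of -0.76. NCAPH, the kleisin that closes the ring, went from 1084 to 735, a log2 ratio of -0.39. It had the lowest signal on both arrays of all member probes. The median over the subunits of condensin I was -0.49, and 1 of 3 was past 2-fold.

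NCAPD3, NCAPG2, and NCAPH2 take the same places in condensin II. NCAPD3 went from a signal of 11841 to 4584, a log2 ratio of -1.20, and NCAPG2 from 13463 to 5615, a ratio of -1.09. NCAPH2, the kleisin, had 3 probes that went from 28764 to 19614, from 26946 to 18325, and from 2134 to 1314. Their log2 ratios were -0.38, -0.39, and -0.53, so all probes of NCAPH2 were lower and none was near 2-fold. The median over the subunits of condensin II was -1.09, and 2 of 3 were past 2-fold.

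By the brightest probes, the complexes differed most in one of the HEAT-repeat subunits. The HEAT-repeat subunit NCAPD3 of condensin II had a lower ratio than its counterpart NCAPD2 of condensin I, with a difference of -0.70 on the log2 scale, which was -0.44 with the dimmer NCAPD2 probe. NCAPG2 and NCAPG differed by 0.041, and NCAPH2 and NCAPH by 0.0088, both less than the spread among probes of a gene. By the brightest probes, the kleisins of both complexes were the condensin subunits with the smallest differences between the arrays. Their scaled levels were 76.8% (NCAPH2) and 76.3% (NCAPH) of those in DMSO-treated cells. NCAPD2 differed from NCAPH by 0.10, less than the spread among probes, so the kleisins are not set apart from it. After subtraction of the ratio of neighbouring spots the kleisins had log2 ratios of -0.26 (NCAPH2) and -0.50 (NCAPH), which differ by 0.25. This is more than the median SD among probes of a gene, but the probes of NCAPD2 alone differ by 0.27.

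The scaling of the arrays moves all ratios together. Without scaling the members had log2 ratios from -1.48 (TOP2A) to -0.21 (TOP2B), and 42.2% of the changed genes were higher, against 63.4% with the 75th percentile. The Agilent spike-in RNA was brighter on the HTE array, and scaling to it put all 10 members past 2-fold lower, TOP2B included (-1.41), along with 18512 of all genes. Under every scaling TOP2A had the lowest ratio of the 10 and TOP2B the highest.

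**Figure D3:**
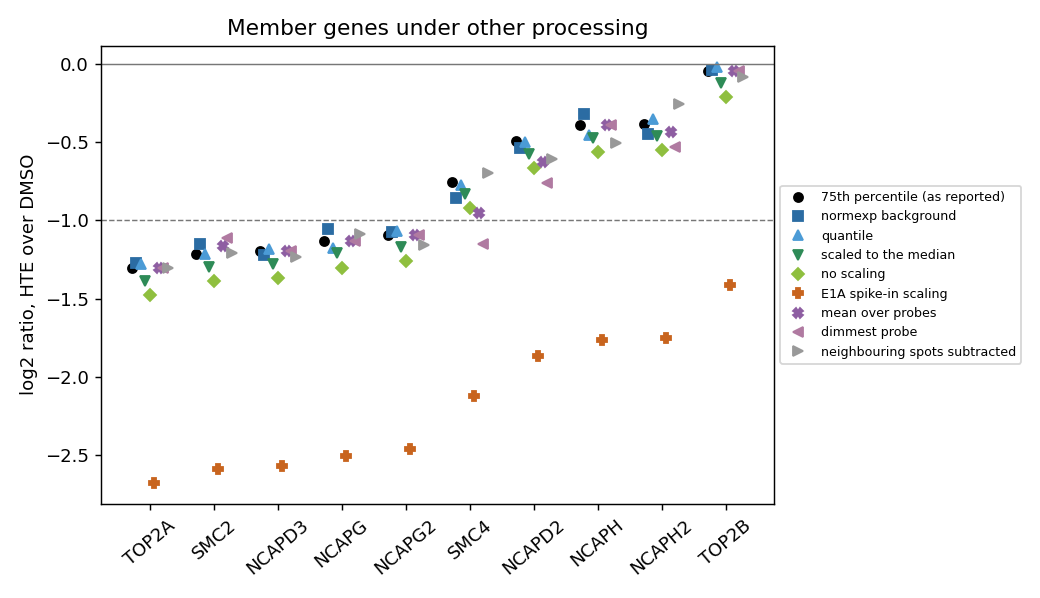
Log2 ratio of HTE over DMSO (vertical axis) of the 10 member genes (horizontal axis, ordered by the reported value) under 9 ways of processing, with the dashed line at a 2-fold fall. The reported values (black circles) run from -1.31 to -0.041, and scaling to the spike-in RNA shifts all members down together, to between -2.68 and -1.41.

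As the members were lower together, apart from TOP2B, their promoters were searched for motifs known from genes of the cell cycle. The letters TTTGAA are those of the cell cycle genes homology region (CHR), which is bound by the DREAM and B-MYB complexes, and CCAAT is bound by the trimer NF-Y. Both were searched on both strands in windows of 300 bases, from 250 before the RefSeq start, and no match of one overlapped a match of the other in the members. A window was given for 9 of the 10 genes, 13 windows in all, in the sequences of RefSeq (GRCh38.p14). NCAPH2 was not among them.

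TTTGAA was found for 8 of the 9 genes, in 61.5% of their windows, against 15.2% of all 35116 windows, and in at least 1 window of 18.2% of all 27305 genes. NCAPH was the exception. TOP2B held a match as well, with its first base at -227 from one of its starts. Whether the matches bear on the levels was not tested. In SMC2 and NCAPD3 the match lay across a start, and in NCAPG2 after it. CCAAT was found for 5 of the 9 genes, in 38.5% of windows, against 34.6% of all windows, and in at least 1 window of 39.7% of all genes. TOP2A held 2 matches of TTTGAA, as 2.27% of all windows do at least. TOP2A and NCAPD2 each held 4 matches of CCAAT, a number that 0.991% of all windows reach. The GC box letters GGGCGG stood in 69.2% of the members' windows and 45.0% of all windows. For E2F only TTTCGCGC and TTTGGCGC were searched and not other forms of the site, so other E2F sites may be present. These E2F letters and the CHR variant TTCGAA stood in none of the 13, against 1.15% and 1.45% of all windows. These are matches of letters, and no binding was measured.

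**Figure D4:**
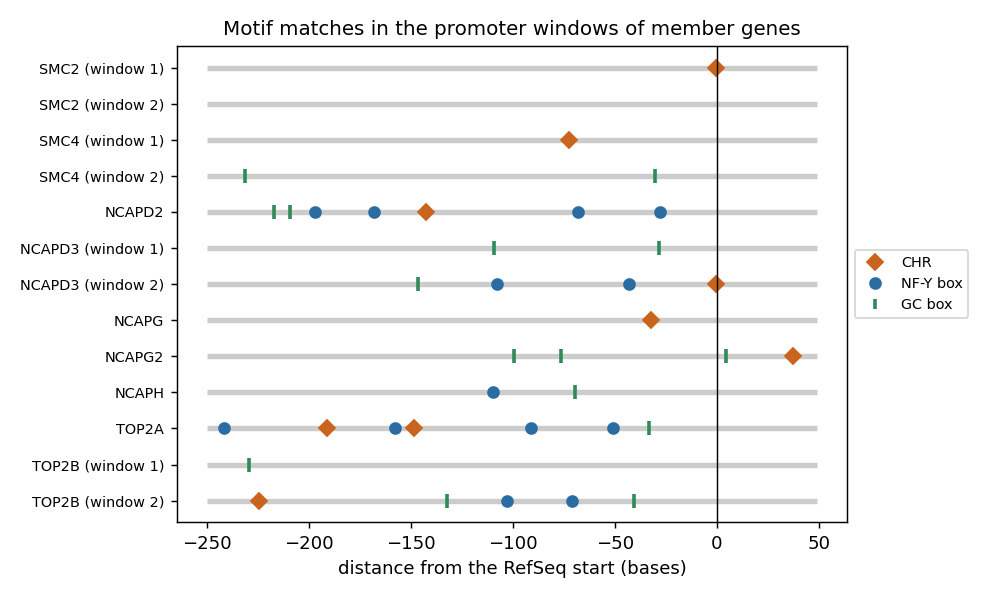
Matches in the 13 promoter windows of 9 member genes, with distance from the RefSeq start in bases on the horizontal axis and the start at 0. Diamonds are CHR matches, circles are NF-Y boxes, and green bars are GC boxes. TOP2A and NCAPD2 carry 4 NF-Y boxes each, and NCAPH carries no CHR match.

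The 250 bases before the start are shown for TOP2A and TOP2B, the isoforms with the lowest and the highest ratio of the set, and for the subunits of condensin I, which hold many CCAAT matches (NCAPD2), a CHR match alone (NCAPG), or no CHR match (NCAPH). For TOP2B, which has a window at each of 2 starts, only the window that holds its TTTGAA and CCAAT matches is shown. The window at its other start holds neither. The sequences are written 5′ to 3′ on the strand of the gene, with TTTGAA and CCAAT in capitals on whichever strand they were found (TTCAAA and ATTGG on the other).
TOP2A (chr17:40417897-40418146, minus strand): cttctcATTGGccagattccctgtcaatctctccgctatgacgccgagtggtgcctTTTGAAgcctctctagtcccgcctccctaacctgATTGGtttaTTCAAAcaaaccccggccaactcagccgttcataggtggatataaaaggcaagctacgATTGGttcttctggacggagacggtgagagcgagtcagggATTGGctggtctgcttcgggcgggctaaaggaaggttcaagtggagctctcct
TOP2B (chr3:25664908-25665157, minus strand): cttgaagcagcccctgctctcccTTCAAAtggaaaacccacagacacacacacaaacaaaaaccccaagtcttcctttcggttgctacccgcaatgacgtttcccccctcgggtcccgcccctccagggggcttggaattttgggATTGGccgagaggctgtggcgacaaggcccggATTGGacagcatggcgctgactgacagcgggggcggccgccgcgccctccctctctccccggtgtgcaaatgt
NCAPD2 (chr12:6493852-6494101, plus strand): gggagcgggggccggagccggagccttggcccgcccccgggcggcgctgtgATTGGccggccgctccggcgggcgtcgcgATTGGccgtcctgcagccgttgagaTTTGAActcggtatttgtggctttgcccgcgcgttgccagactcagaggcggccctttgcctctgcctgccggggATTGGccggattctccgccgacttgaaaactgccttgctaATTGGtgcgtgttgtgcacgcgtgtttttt
NCAPG (chr4:17810729-17810978, plus strand): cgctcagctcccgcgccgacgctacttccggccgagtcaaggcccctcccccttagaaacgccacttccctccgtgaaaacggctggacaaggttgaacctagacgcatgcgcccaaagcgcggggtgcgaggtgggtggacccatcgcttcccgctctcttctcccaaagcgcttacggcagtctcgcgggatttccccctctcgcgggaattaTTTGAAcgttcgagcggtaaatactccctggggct
NCAPH (chr2:96335516-96335765, plus strand): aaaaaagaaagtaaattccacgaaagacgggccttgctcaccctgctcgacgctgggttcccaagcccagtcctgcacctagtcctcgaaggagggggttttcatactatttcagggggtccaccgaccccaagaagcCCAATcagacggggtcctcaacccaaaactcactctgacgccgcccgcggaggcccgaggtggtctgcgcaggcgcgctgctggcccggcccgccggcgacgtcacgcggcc

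The partners with which condensin and topoisomerase II act in mitosis were taken as a list of 18 genes. All 18 were lower with HTE, 11 of them at least 2-fold, with a median log2 ratio of -1.08. MKI67, which coats mitotic chromosomes, had the lowest ratio (-2.27). Mitotic kinases were among the 11, with PLK1 at -1.74, AURKA at -1.37, BUB1 at -1.05, and HASPIN at -1.03, as was the cyclin CCNA2 (-1.73). CDK1, the kinase that drives entry into mitosis, was not, with a ratio of -0.72. Of the chromosomal passenger complex, INCENP (-1.22) and CDCA8 (-1.19) were past 2-fold, whereas AURKB (-0.33) and BIRC5 (-0.52) were not. The chromosome motors KIF4A (-1.30) and KIF22 (-1.25) and MCPH1 (-1.11), an inhibitor of condensin II, completed the 11. A dimmer probe of KIF4A (-0.86) and of MCPH1 (0.072) was not past 2-fold, so the place of both genes among the 11 rests on the brighter probe. Of the others, CCNB1 was lowest (-0.91) and RCC1, which marks chromatin for the GTPase RAN, was highest (-0.14).

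Cohesin, the ring that holds sister chromatids together, is built on SMC proteins as condensin is. Of 10 cohesin subunits and loaders, none was past 2-fold in either direction. Their median log2 ratio was -0.15, and they ranged from -0.84 for PDS5B, a cohesin-bound regulator, to 0.27 for MAU2, a subunit of the loader. The 8 genes that control cohesion had a median of -0.96, with 3 of them at least 2-fold lower. These were ESCO2 (-1.37), the acetyltransferase that locks cohesin in S phase, and the shugoshins SGO2 (-1.12) and SGO1 (-1.07, and -0.99 at its dimmer probe), which protect it at centromeres. CDCA5, the sororin gene, was lowest of the rest (-0.98), and ESCO1, an acetyltransferase that is also active outside S phase, was highest (0.33). Of 4 meiotic cohesin subunits 3 were measured, none past 2-fold, with REC8 at -0.14, STAG3 at -0.041, and a median of -0.041.

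The SMC5/6 complex, the remaining SMC complex of human cells, acts in DNA repair. None of its 9 genes was past 2-fold by the brightest probe, although SLF1 was at its dimmer probe (-1.27). The median was -0.18, and the ratios ran from -0.87 for SLF1, which brings the complex to damaged DNA, to 0.85 for EID3, a subunit of low signal on these arrays. The SMC families were thus unequal on these arrays, with medians of -0.92 over the 8 condensin subunits, -0.15 over the cohesin subunits and loaders, and -0.18 over SMC5/6.

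Among 8 other topoisomerases and partners of topoisomerase III, 7 were measured and had a median of -0.44. RMI2 (-1.46) and RMI1 (-1.15), which bind topoisomerase III and the helicase BLM, were at least 2-fold lower, and BLM itself had a ratio of -0.89. The topoisomerases were nearer to 0, with TOP3A at -0.44, TOP1, which nicks one strand during transcription and replication, at -0.16, TOP1MT of mitochondria at 0.12, and TOP3B at 0.17. Among TOP1, TOP1MT, TOP2A, TOP2B, TOP3A, and TOP3B, TOP2A alone was past 2-fold. The 8 genes that repair trapped topoisomerases had a median of -0.34 and none past 2-fold, from TDP1 (-0.86), which cleaves topoisomerase I from DNA, to RAD50 (0.094). TDP2, which does the same for topoisomerase II, had a ratio of -0.014.

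Of the 14 genes of DREAM, B-MYB, FOXM1, and NF-Y, which act at promoters of cell cycle genes, 2 were at least 2-fold lower and the median was -0.69. These were RBL1 (-1.82), the pocket protein p107, and FOXM1 (-1.01), an activator of late cell cycle genes. LIN54, the DREAM subunit that contacts CHR sites, was lowest of the others (-0.89), and LIN37 was highest (0.22). Of 10 chromatin architecture factors 9 were measured, none past 2-fold by the brightest probe, with a median of -0.43. Dimmer probes of HMGA2 (-1.42) and of SMCHD1 (-1.18), a non-canonical SMC protein, were past it. HMGA2 was lowest (-0.77) and HMGA1 highest (0.17), and HMGB2, which bends DNA, had a ratio of -0.61.

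**Figure D5:**
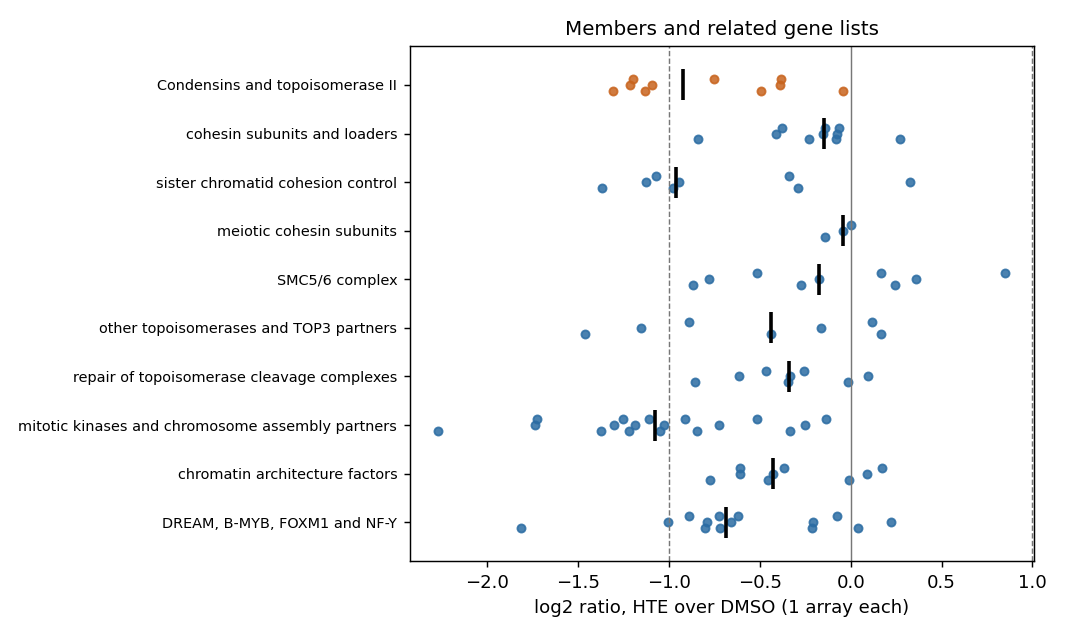
Log2 ratio of HTE over DMSO of each measured gene (points) in the member set (top row) and in 9 related lists, with vertical black bars at the medians and dashed lines at 2-fold. The members (median -0.92), the genes of cohesion control (-0.96), and the mitotic partners (-1.08) lie lower than the cohesin (-0.15) and SMC5/6 (-0.18) rows.

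The cells were checked against their label. All 11 hepatocyte markers were well above background on both arrays and none was past 2-fold, with a median log2 ratio of 0.13, from -0.36 (FGB, a fibrinogen chain) to 0.32 (AHSG, fetuin). Of 6 fibroblast markers 3 were above background on at least 1 array, with none past 2-fold (PDGFRB at 0.17 and COL1A1 at -0.63, and COL3A1 on 1 array only). COL1A2, DCN, and LUM were well above background on neither array. Among the leukocyte markers, PTPRC was well above background on both arrays at its brightest probe, with a log2 ratio of 0.14. A dimmer PTPRC probe, also above background on both, had -0.88, and its remaining probes were above background on neither array. CD14, which hepatocytes also express, was above background on both arrays and lower with HTE (-1.77). CD3E was well above background on neither array, and LYZ was not matched to a probe.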

How the data were processed

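HepG2 cells treated with DMSO or HTE were profiled on 1 single-colour (Cy3) Agilent SurePrint G3 array each. The authors deposited intensity values, the spot output of Agilent Feature Extraction (11.5.1.1 in the file header, 10.7 in the submitters' processing notes), with background subtracted and no scaling between arrays. From these, control spots were left out, log2 was taken, and the 75th percentile of each array was subtracted. Outlier spots were then left out and replicate spots were averaged. The filter on dim probes asked for a share of 0.5 of the spots well above background on either array, and where only one array met it the ratio was a bound. Probes were named through RefSeq accessions without version (28174 of 50599 probes). The file header names another genome build than the GRCh38.p14 gene table, which was used for names only. Normexp was run on the median signal. The brightest probe represented a gene. A log2 ratio of 1 in either direction counted as past 2-fold, the fold cutoff the study used for these arrays. Named are the members and, for each list, the genes past 2-fold and the highest and lowest of the others above background on both arrays. CDK1, AURKB, BIRC5, SMCHD1, TOP3A, TOP1, TOP1MT, TDP2, and HMGB2 were named beside this rule after their values were seen. Members and lists were chosen with earlier results of these data known. With 1 array per group no test was run, the number of arrays limits the precision, and likeness of patterns between genes was not computed. The steps that count genes past 2-fold were checked on simulated arrays. Python 3.11.15 (numpy 2.4.6, pandas 2.3.3, matplotlib 3.10.9) and R 4.3.3 (limma 3.58.1, normexp with offset 50) were used. Alternatives were other background correction, scaling, filters, probes, and fold thresholds, and 2 (the dimmest probe, and subtraction of the median ratio of spots within 5 rows and columns) were added after seeing the data. The result of 1 marker gene is not reported here.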

Additional observations from a re-analysis of the deposited data

How the results depend on the processing

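The count of members at least 2-fold higher (0) and the difference between TOP2A and TOP2B changed by no more than the SD among replicate spots under the alternatives run, and the medians of all members and of both condensins stayed below 0. The cause of each shift was not tested, apart from those built into an alternative. Scaling to the spike-in RNA gave 10 members at least 2-fold lower, and a 3-fold threshold gave 0. With the spike-in scaling the medians were -2.29 (all members), -1.87 (condensin I), and -2.46 (condensin II). The same medians were -1.0, -0.57, and -1.17 with scaling to the median, and -1.09, -0.67, and -1.26 without scaling. The mean over all probes gave -1.02 for all members and -0.63 for condensin I, and the dimmest probe, an alternative chosen after seeing the data, -1.10 and -0.76. Subtraction of neighbouring spots, also chosen after seeing the data, gave -0.61 for condensin I and -1.16 for condensin II.

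Over all genes, 720 lower and 1248 higher became 468 and 825 with normexp, 1209 and 883 without scaling, 1868 and 2390 without a filter on dim probes, 1320 and 1341 with the own values of dim probes (50.4% of changed genes higher against 63.4%), and 18512 and 112 (0.601% higher) with spike-in scaling. The median of all genes shifted by -0.16 without scaling, by -1.36 with spike-in scaling, and by 0.21 without a filter. No paired analysis was possible because each group has 1 array.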

Other observations

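The 8 E1A spike-in probes well above background on both arrays were brighter on the HTE array before scaling, by 0.45 to 1.57 on the log2 scale with a median of 1.2.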
